A study of Mus musculus with 12 samples.

Results

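The genes described here are 10 Toll-like receptors, co-receptors and signalling proteins, taken by name from the deposited count table of 46095 genes: Tlr2, Tlr4, Cd14, Tlr3, Tlr7, Tlr9, Tlr13, Myd88, Ticam1 and Irak3. All 10 were rows of the table, and all 10 passed the filter on low counts and were tested, among 13743 genes tested in all. RNA was sequenced from 6 pancreas samples of Axl-/-Mertk-/- mice (AMKO 1 to 6) and 6 of C57BL/6J wild type mice (WT 1 to 6), each at postnatal day 56. The mice of both groups had acute pancreatitis, set off by 10 injections of caerulein given hourly into the peritoneum at 100 µg/kg, and tissue was taken 12 h after the first. Caerulein is an analogue of cholecystokinin that overstimulates the enzyme-secreting acinar cells. On which background the AMKO strain was kept is not stated in its labels, so background and receptor loss cannot be told apart, and no untreated pancreas was analysed here.

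Toll-like receptors recognise microbial molecules and molecules released by dying cells. TLR2 and TLR4 sit on the cell surface, whereas TLR3, TLR7, TLR9 and mouse TLR13 sit in endosomes and bind nucleic acids. Most of them signal through the adaptor MYD88. TLR3 instead uses TRIF, the product of Ticam1, and TLR4 uses both adaptors. IRAK3, also called IRAK-M, is a kinase-like protein of macrophages and monocytes that dampens the MYD88 branch. AXL and MERTK, receptor tyrosine kinases of the TAM family, are known from mouse dendritic cells and macrophages to restrain Toll-like receptor signalling, which is the reason for setting these genes side by side in the AMKO and wild type pancreas.

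Total counts per library ran from 10668637 to 15184371. Levels below are CPM, gene counts scaled to a common library size with edgeR's TMM factors, and fold changes are log2 of AMKO over WT with their standard error (SE) and a Benjamini-Hochberg adjusted p from edgeR's quasi-likelihood test over all genes tested, called at 0.05. Axl, one of the targeted genes, stood at 9.09 ± 2.21 CPM in AMKO and 58.9 ± 12.3 CPM in WT (SD, n = 6 each), while Mertk counts did not separate the genotypes and do not check its disruption. Acinar markers summed to 156100 to 296900 CPM in AMKO and 175900 to 266700 CPM in WT, so the tissue was acinar pancreas in every library. Sets of libraries stood apart, the first spread over both genotypes and the second wholly within WT, so the second is partly confounded with genotype. AMKO 3, AMKO 6, WT 3 and WT 6 were lowest in the summed level of 10 pan-leukocyte markers, at 176, 149.8, 114.3 and 157 CPM, against 245.3 to 598.3 CPM in the other 8. WT 1 to 3 nearly lacked the liver transcripts seen elsewhere, with liver markers at 2.71 to 11.9 CPM against 22.4 to 53.5 CPM in the other 9 libraries. The labels do not say that each sample came from its own mouse, so p-values measure the spread between samples.

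Tlr3, the endosomal receptor for double-stranded RNA, was the 1 gene of the 10 called between the genotypes, and it was lower in AMKO. Its level was 11.3 CPM in the lowest AMKO library, 16.4 at the median and 18.9 in the highest, against 23.9, 26.9 and 35.8 CPM in WT. No AMKO library reached the lowest WT library, and AMKO 1 and AMKO 5, which were rich in leukocyte transcripts, lay with the other AMKO libraries. The log2 fold change was -0.89 (SE 0.14, adjusted p = 0.00291), about 0.54 of the WT level, with 15.6 ± 2.70 CPM in AMKO and 28.8 ± 5.17 CPM in WT (SD, n = 6 each). Raw counts behind these levels were 142 to 259 per AMKO library and 304 to 460 per WT library. Of all genes tested, 5.78% were called, 3.37% as lower and 2.41% as higher in AMKO, and 3.54% had groups that did not overlap. The count of 1 in 10 is not read as a property of the 10 genes against that background. Tlr3 lies on chromosome 8 (45395665 to 45411080, minus strand, GRCm38) and its exons overlap Gm45542 on the other strand, a name that is not a row of the deposited count table. Since the counting is not stated to use strand, reads of that pair cannot be told apart.

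**Figure D1:**
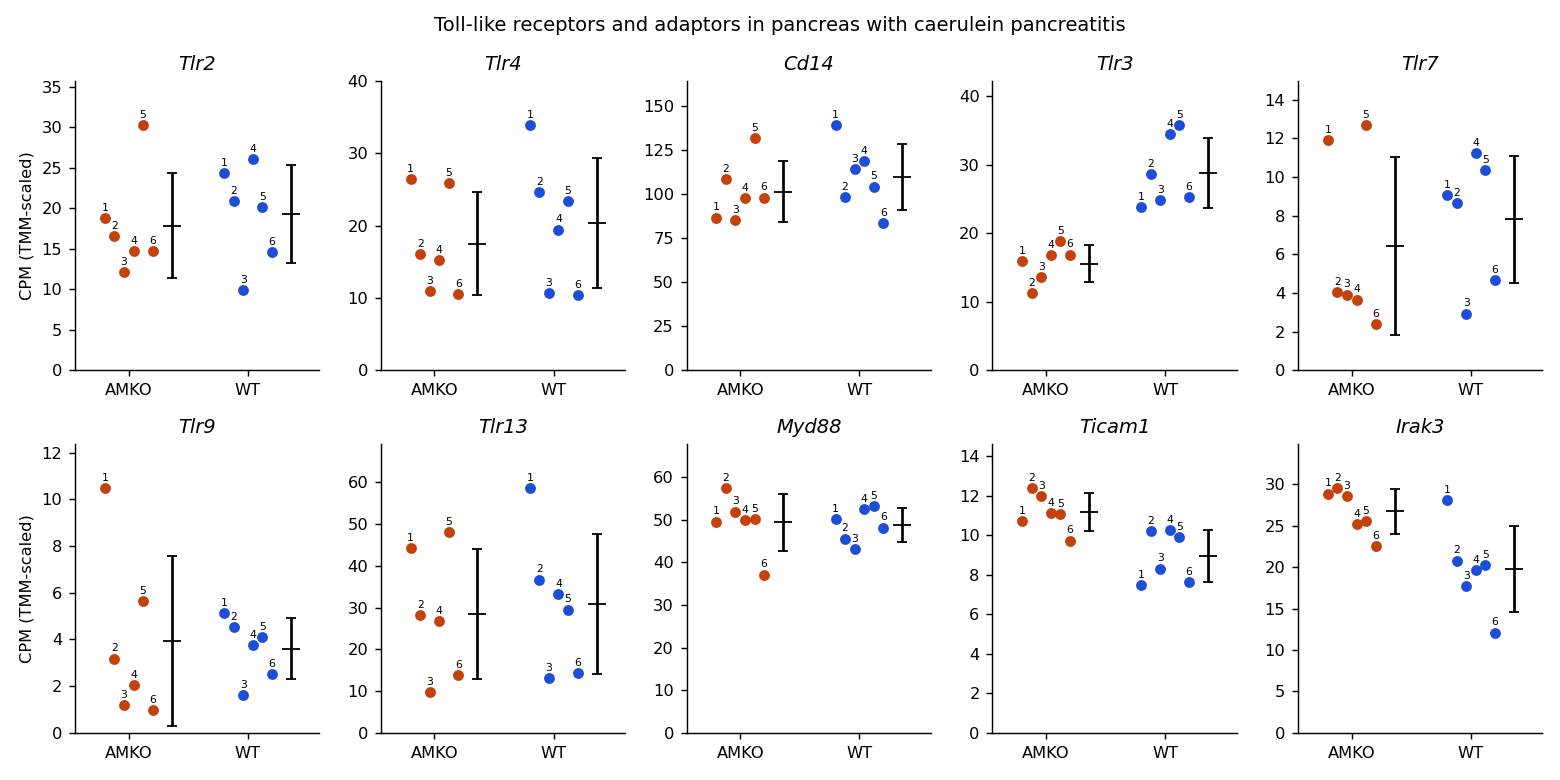
Level of each of the 10 genes in CPM (y axis, from 0, separate scale per gene) in the AMKO (left, orange) and WT (right, blue) libraries, with library numbers on the points and the mean ± SD of 6 libraries in black. The Tlr3 groups do not overlap, at 11.3 to 18.9 CPM in AMKO and 23.9 to 35.8 CPM in WT, and those of the other 9 genes do.

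The Tlr3 difference was also called when the sets of libraries named above were left out or used alone. Without AMKO 3, AMKO 6, WT 3 and WT 6 it was -0.96 (SE 0.18, adjusted p = 0.0405), in a fit that called 0.705% of genes. Against WT 4 to 6 alone it was -1.01 (SE 0.16, adjusted p = 0.019), and against WT 1 to 3 alone -0.73 (SE 0.15, adjusted p = 0.042). With the mean of the pan-leukocyte markers as a covariate it was -0.90 (SE 0.13, adjusted p = 7.34e-04), when 12% of all genes were called. In bulk tissue, fewer cells of a type and less RNA per cell cannot be told apart. Conventional type 1 dendritic cells are rich in TLR3. Of 9 dendritic cell markers 5 were tested and none was called, with a median log2 fold change of 0.27 and the list at 40.4 to 83.7 CPM in AMKO and 34.9 to 48.7 CPM in WT. Most of that sum came from Zbtb46, which averaged 30.95 CPM in AMKO and 25.66 CPM in WT, and Wdfy4 (13.78 and 10.06 CPM). The median is the fold change of Zbtb46 itself, so the sum is a weak measure of dendritic cells. Xcr1 and Clec9a, which define the type 1 cells, were too low to be tested. Xcr1 ran from 0 to 1.11 CPM in AMKO and from 0 to 0.374 CPM in WT, and Clec9a averaged 0.266 CPM in AMKO and 0.621 CPM in WT. Stromal cells also carry TLR3, and some of their markers were lower in AMKO. Of 6 fibroblast markers 1 was called, Pdgfrb (-0.62, SE 0.16, adjusted p = 0.033), 4 had an unadjusted p under 0.05, and 2 were called by DESeq2 and 2 by limma voom. The median log2 fold change of these 6 was -0.52, with the list at 298 to 739.9 CPM in AMKO and 427.3 to 872.4 CPM in WT. Of all 13743 genes tested, edgeR called 794 (5.78%) and gave 3008 an unadjusted p under 0.05, while 1234 were called by DESeq2 and 1664 by limma voom. Of 6 endothelial markers 1 was called, Kdr (-0.83, SE 0.15, adjusted p = 0.00752), with the list at 103.4 to 166 CPM in AMKO and 132.8 to 196.3 CPM in WT. None of the 6 fibroblast and 6 endothelial markers was at 0 throughout, and the part of dendritic, fibroblast and endothelial cells in the Tlr3 result was not tested.

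In a list of other pattern receptors, 13 of 14 present in the table were tested. Of these, 2 were called lower in AMKO and none higher, against 3.37% called lower and 2.41% higher over all genes tested. The median log2 fold change was -0.08 (all genes tested -0.0020). The list was chosen with earlier results of these data known, so its count is not read as a property of the list. The 2 called genes encode cytosolic helicases that bind viral double-stranded RNA. Ifih1, which encodes MDA5 (chromosome 2, 62595798 to 62646255), had 14.9, 18.7 and 30.2 CPM in AMKO (lowest, median and highest) against 31.2, 40.1 and 55.5 CPM in WT. These groups did not overlap either, as for 3.54% of all genes tested, although AMKO 1 came within 1 CPM of WT 6 (log2 fold change -0.93, SE 0.18, adjusted p = 0.00915). Ddx58, which encodes RIG-I (chromosome 4, 40203773 to 40239828), had 17.9, 20.9 and 37.2 CPM in AMKO against 34.1, 41.7 and 68.0 CPM in WT. Here AMKO 1 and AMKO 5 lay inside the WT range (log2 fold change -0.85, SE 0.22, adjusted p = 0.0376). Ddx58 lost its call in 7 of the 12 fits without 1 library, those without AMKO 2, AMKO 3, AMKO 4, AMKO 6, WT 2, WT 4 or WT 5 (adjusted p up to 0.0911), and both helicases lost it in the fits on fewer libraries. Without the 4 leukocyte-poor libraries Ifih1 was at -0.92 (adjusted p = 0.0547) and Ddx58 at -0.88 (0.166). Against WT 4 to 6 alone Ifih1 was at -0.999 (0.0629) and Ddx58 at -1.03 (0.0904), and against WT 1 to 3 alone Ifih1 was at -0.85 (0.0712) and Ddx58 at -0.64 (0.243). MAVS, the mitochondrial adaptor that both helicases use, was at 24.9 ± 2.54 CPM in AMKO and 26.3 ± 2.02 CPM in WT (log2 fold change of Mavs -0.08, SE 0.09, adjusted p = 0.636, chosen after its values were seen).

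**Figure D2:**
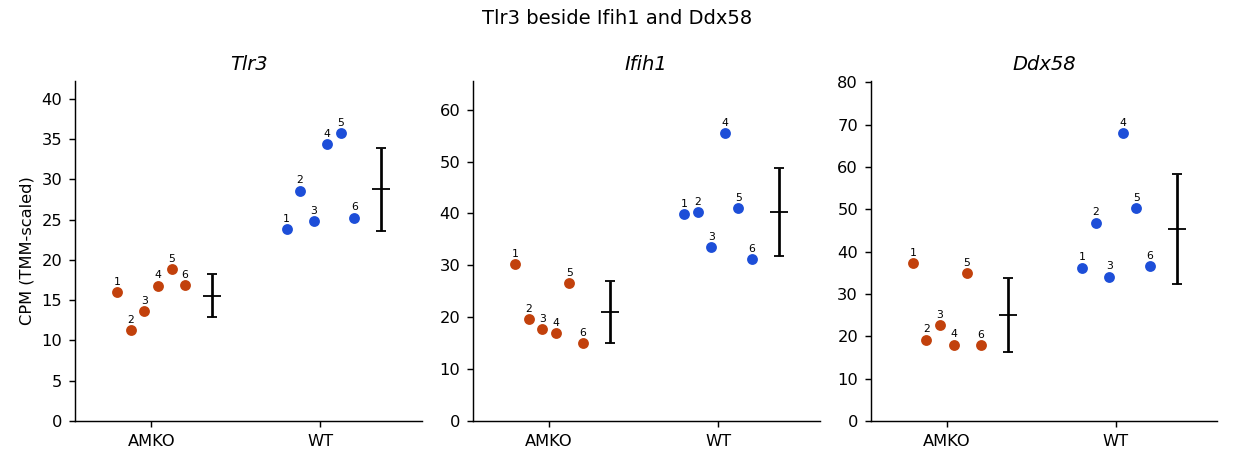
Levels of Tlr3, Ifih1 and Ddx58 in CPM (y axis, from 0, separate scale per gene) in AMKO (left, orange) and WT (right, blue) libraries, numbered, with mean ± SD in black. For Tlr3 and Ifih1 every AMKO library is below every WT library, while Ddx58 in AMKO 1 (37.2 CPM) and AMKO 5 (34.9 CPM) lies above the lowest WT library (34.1 CPM).

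The nearest expression profiles to Tlr3 were sought as the smallest root mean square distance between log2 CPM profiles, each centred on its mean over the 12 libraries, among 11292 genes. The nearest was Trim21, a cytosolic antibody receptor that interferon induces, at a distance of 0.16 log2 units, and the next was Mllt3, a chromatin reader, at 0.20, against a median distance of 0.55 over all candidates. Both were selected for likeness to a profile that splits by genotype, so their own difference is a description and not a further result. Trim21 stood at 11.9 ± 1.90 CPM in AMKO and 21.6 ± 4.89 CPM in WT, a log2 fold change of -0.86. Mllt3 stood at 7.57 ± 0.98 CPM in AMKO and 13.1 ± 2.39 CPM in WT, a log2 fold change of -0.79.

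The promoters of Tlr3, Ifih1 and Ddx58 are shown because all 3 genes were called lower in AMKO. Each is the 300 bases from 250 before to 50 after a RefSeq start (GRCm38.p6), written 5′ to 3′ along the gene, and capitals mark each match to the interferon regulatory factor element AANNGAAA on either strand.
Tlr3, chr8:45410331-45410630, minus strand: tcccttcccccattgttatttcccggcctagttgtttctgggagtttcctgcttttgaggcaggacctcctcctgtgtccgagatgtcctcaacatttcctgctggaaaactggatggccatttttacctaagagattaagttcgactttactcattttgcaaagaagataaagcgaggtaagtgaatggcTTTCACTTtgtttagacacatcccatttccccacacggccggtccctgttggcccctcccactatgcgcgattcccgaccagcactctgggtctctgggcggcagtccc
Ifih1, chr2:62646206-62646505, minus strand: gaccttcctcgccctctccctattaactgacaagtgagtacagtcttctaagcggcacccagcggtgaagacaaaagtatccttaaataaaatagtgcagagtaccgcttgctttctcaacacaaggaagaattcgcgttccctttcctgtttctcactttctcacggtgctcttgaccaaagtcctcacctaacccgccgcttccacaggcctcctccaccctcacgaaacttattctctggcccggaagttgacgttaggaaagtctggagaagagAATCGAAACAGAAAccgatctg
Ddx58, chr4:40239776-40240075, minus strand: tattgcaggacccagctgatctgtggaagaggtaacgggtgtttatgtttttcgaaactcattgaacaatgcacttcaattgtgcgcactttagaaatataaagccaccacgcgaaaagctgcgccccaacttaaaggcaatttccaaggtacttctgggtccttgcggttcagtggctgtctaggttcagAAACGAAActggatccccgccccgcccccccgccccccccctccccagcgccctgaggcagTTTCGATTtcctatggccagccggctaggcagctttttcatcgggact
The element was present once for Tlr3, at position -59 from the start, and 2 times each for Ifih1 and Ddx58, overlapping in Ifih1, and it was chosen after these sequences had been read. Among the members that were not called, it was present 2 times for Tlr2 and 1 time for Myd88. It is common, with at least 1 match in 23.9% of 32851 promoters of this length. The longer interferon-stimulated response element core, which reads GAAA, 2 bases of any kind and GAAA, found in 3.44% of promoters, matched 1 time each in Ifih1 and Ddx58, overlapping the shorter element, and had no match in the Tlr3 window. That window ends at 45410630, inside the gene, whose 5′ end in GENCODE M21 is at 45411080. Bases before that end were not searched, whereas the Ifih1 and Ddx58 windows reach past the 5′ ends of their genes. The NF-kB site, which reads GGGA, 1 base of any kind and TTTCC, found in 0.411% of promoters, matched 1 time in Tlr3, at position -211, and in neither helicase. Among the 10 genes, 7 had a promoter in the RefSeq table. Of these 7 genes only Myd88 held that longer core, at position -40, and only Tlr9 held the PU.1 site GAGGAAGT (3.2% of promoters), at position 11. A match is a run of letters and says nothing of binding in these samples.

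The surface receptors and their co-receptor did not pass the test. Tlr2, the receptor for bacterial lipoproteins, had 12.1, 15.7 and 30.3 CPM in AMKO (lowest, median and highest) against 9.95, 20.5 and 26.1 CPM in WT. AMKO 5 was the highest library of all and WT 3 the lowest, so each group spanned most of the range (log2 fold change -0.11, SE 0.24, adjusted p = 0.831). Tlr4, the receptor for bacterial lipopolysaccharide, had 10.5, 15.7 and 26.5 CPM in AMKO against 10.4, 21.4 and 33.9 CPM in WT (-0.21, SE 0.31, adjusted p = 0.732). Its 4 lowest libraries were AMKO 3, AMKO 6, WT 3 and WT 6, all between 10.4 and 10.97 CPM, with a gap to 15.3 CPM in the next. Cd14, which hands lipopolysaccharide to TLR4, had 85.2, 98.0 and 132 CPM in AMKO against 83.7, 109 and 139 CPM in WT (-0.12, SE 0.13, adjusted p = 0.642). Its 4 lowest libraries included 2 of those of Tlr4, WT 6 and AMKO 3, while WT 3 had 114 CPM, above the WT median.

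The other endosomal receptors varied widely between libraries within each genotype, and none passed the test. Tlr7, a receptor for single-stranded RNA, had 2.38, 3.98 and 12.7 CPM in AMKO against 2.94, 8.86 and 11.2 CPM in WT (-0.26, SE 0.43, adjusted p = 0.764), and the fold change ranged from -0.55 without AMKO 5 to -0.087 without AMKO 6. AMKO 1 and AMKO 5 were the highest of all 12 libraries and the other AMKO libraries were at 4.05 CPM or lower, so the AMKO group fell into separate clusters. With the pan-leukocyte covariate, Tlr7 was lower in AMKO (-0.60, SE 0.17, adjusted p = 0.0305), again in the fit that called 12% of all genes. Tlr9, the receptor for unmethylated CpG DNA, had 0.974, 2.61 and 10.5 CPM in AMKO against 1.63, 3.93 and 5.12 CPM in WT (0.14, SE 0.49, adjusted p = 0.897). Its highest library, AMKO 1, set the sign, which turned without it (-0.44, adjusted p = 0.553). Tlr13, which in mice detects bacterial ribosomal RNA, had 9.78, 27.5 and 48.1 CPM in AMKO against 13.0, 31.4 and 58.6 CPM in WT (-0.11, SE 0.41, adjusted p = 0.903). As for Tlr4, its 4 lowest libraries were AMKO 3, AMKO 6, WT 3 and WT 6, at 9.78 to 14.2 CPM, and the next was at 26.7 CPM.

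Tlr3 was also set against the other endosomal receptors within each library, as a difference of log2 CPM, by two-sided exact permutation tests over the 12 libraries. These were 4 ratios with Tlr3 and 1 of Irak3 over Myd88, all chosen with the values known, adjusted over the 5, and the smallest p that 6 against 6 allows is 0.00217. Tlr3 relative to Ticam1, its own adaptor, was 0.46 ± 0.36 in AMKO and 1.66 ± 0.13 in WT (SD, n = 6 each), a difference of -1.20 with no overlap between genotypes (exact permutation p = 0.00217, adjusted p = 0.0108). The levels of Tlr3 already separated the genotypes, and those of Ticam1 nearly did so in the other direction. This ratio therefore had to separate, and its p adds no support to the Tlr3 result. Relative to Tlr7, Tlr9 and Tlr13 the ratio differed by -0.46, -0.63 and -0.74 log2 units, with adjusted exact permutation p = 0.32, 0.32 and 0.267. Those 3 differences did not pass the test, so Tlr3 was not shown to differ from the other endosomal receptors. For Tlr3 over Ticam1 the difference was -1.30 against WT 4 to 6 and -1.10 against WT 1 to 3 (adjusted exact permutation p = 0.0595 and 0.119), and -1.23 without the 4 leukocyte-poor libraries (0.143). In these smaller designs the smallest unadjusted p is 0.0238 for 6 against 3 and 0.0286 for 4 against 4, so 1 ratio alone could not pass after adjustment over 5. With libraries paired by replicate number, Tlr3 over Ticam1 also lost its call (-1.20, adjusted exact permutation p = 0.0521). The smallest unadjusted p of that design is 0.03125. In all, 4 of 17 alternatives lost the call of Tlr3 over Ticam1. The ratio to Tlr9 was -0.27 without AMKO 1, and the ratio to Tlr7 ranged from -0.25 without AMKO 1 to -0.71 without AMKO 6.

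Myd88, the adaptor of most Toll-like receptors, did not pass the test. It had 37.1, 50 and 57.5 CPM in AMKO against 43.1, 49.1 and 53.2 CPM in WT (log2 fold change 0.02, SE 0.09, adjusted p = 0.933). AMKO 6 was the lowest library, and the other 11 lay between 43.1 and 57.5 CPM. Myd88 lies on chromosome 9 and shares exonic sequence with Acaa1a on the other strand, a peroxisomal thiolase gene that was itself higher in AMKO (0.50, SE 0.10, adjusted p = 0.0109), so its counts are uncertain. Ticam1 had 9.74, 11.1 and 12.4 CPM in AMKO against 7.46, 9.11 and 10.3 CPM in WT. Only AMKO 6 fell within the WT range, with 5 of 6 AMKO libraries above the highest WT library (0.32, SE 0.12, unadjusted p = 0.0149 and adjusted p = 0.117 by edgeR). The difference did not pass the test.

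Irak3 had 22.5, 27.1 and 29.6 CPM in AMKO against 12.1, 19.9 and 28.1 CPM in WT, on chromosome 10 (120141648 to 120202130, minus strand). All WT libraries except WT 1 were below all 6 AMKO libraries, and WT 1 lay among the AMKO values. The log2 fold change of 0.44 (SE 0.15, unadjusted p = 0.0136 by edgeR) did not pass over all genes (adjusted p = 0.112). Without WT 1 it did (0.58, SE 0.13, adjusted p = 0.0281), whereas against WT 1 to 3 alone it was 0.26 (adjusted p = 0.421) and against WT 4 to 6 alone 0.64 (adjusted p = 0.0866). Relative to Myd88 in the same library, Irak3 was at -0.88 ± 0.11 log2 units in AMKO and -1.33 ± 0.38 in WT (SD, n = 6 each). The difference was 0.46 (exact permutation p = 0.0108, adjusted p = 0.0271 over 5 ratios). Myd88 itself hardly differed (log2 fold change 0.02), and its counts are uncertain. This ratio, chosen with the values known, therefore largely restates the Irak3 difference, and its p adds no support to it. The call of the ratio was lost without AMKO 1, AMKO 6, WT 2, WT 3, WT 4, WT 5 or WT 6 (adjusted exact permutation p = 0.0541 in each). The difference was 0.20 against WT 1 to 3 (adjusted exact permutation p = 0.298), 0.72 against WT 4 to 6 (0.0595) and 0.27 without the 4 leukocyte-poor libraries (0.143), designs in which 1 ratio alone cannot pass. In all, 11 of 17 alternatives lost the call. Exons of Irak3 overlap Tmbim4 on the other strand, which was at 29.8 ± 5.04 CPM in AMKO and 30.1 ± 3.42 CPM in WT (log2 fold change -0.01, SE 0.11, adjusted p = 0.969).

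**Figure D3:**
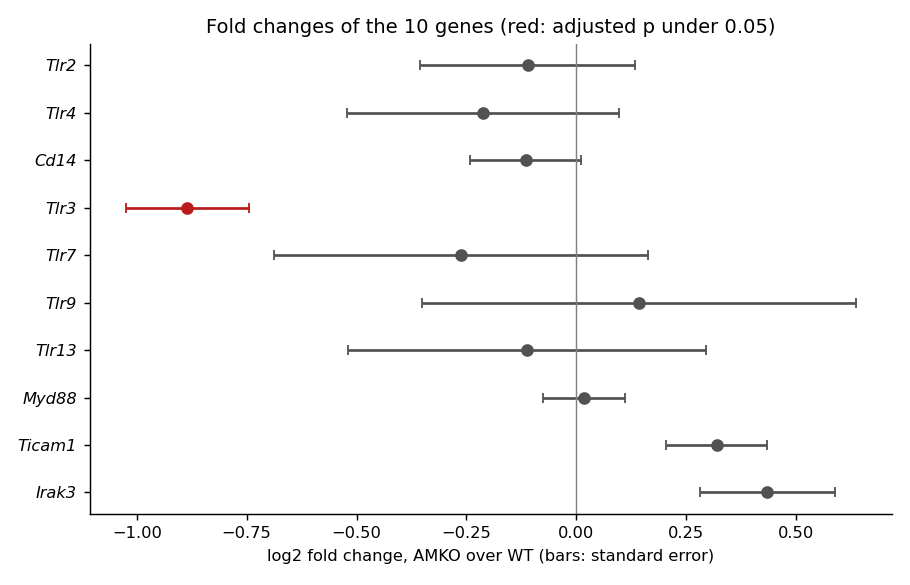
Log2 fold change, AMKO over WT, of the 10 genes (x axis) with its standard error as bars, from edgeR over 12 libraries; red marks an adjusted p under 0.05. Tlr3 alone is called, at -0.89, and Tlr7 and Tlr9 have the widest standard errors, 0.43 and 0.49.

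The 10 genes differed in how far each varied across libraries, without a break between variable and steady ones. On the log2 scale the SD within genotype was 0.96 in AMKO and 0.75 in WT for Tlr7, 1.25 in AMKO and 0.59 in WT for Tlr9, 0.91 in AMKO and 0.83 in WT for Tlr13, and 0.57 in AMKO and 0.68 in WT for Tlr4. It was 0.45 in AMKO and 0.52 in WT for Tlr2, 0.23 in AMKO and 0.25 in WT for Cd14, and 0.15 in AMKO and 0.39 in WT for Irak3. For Myd88 it was 0.21 in AMKO and 0.12 in WT, and for Ticam1 0.12 in AMKO and 0.21 in WT, against medians over all genes tested of 0.24 in AMKO and 0.22 in WT. Tlr3 was close to those medians, at 0.26 in AMKO and 0.25 in WT. For Tlr4 and Tlr13 the 4 leukocyte-poor libraries were exactly the 4 lowest, and for 5 further genes (Tlr2, Tlr7, Tlr9, Myd88 and Ticam1) 3 of the 4 lowest were among them. Tlr3 had 1 of them among its 4 lowest, AMKO 3. Since every AMKO library was below every WT library for Tlr3, WT 3 and WT 6 could not be counted there. Its count is therefore not comparable with those of the other genes. Within WT, Tlr3 stood at 24.78 CPM in WT 3 and 25.25 CPM in WT 6, between 23.86 CPM in WT 1 and 28.6 CPM in WT 2. Within AMKO it stood at 13.61 CPM in AMKO 3 and 16.87 CPM in AMKO 6. Neutrophil markers summed to 49.97 to 64.7 CPM in those 4 libraries and 159.1 to 605.8 CPM in the other 8, and macrophage markers to 260.4 to 536.2 CPM and 658.8 to 1493 CPM. The B cell markers were highest in AMKO 1 (177.7 CPM) and AMKO 5 (56.7 CPM), the libraries that were also highest for Tlr7 and Tlr9, with 0.571 to 23.4 CPM in the other 10. AMKO 1 and AMKO 5 were also highest for pan-leukocyte markers (598.3 and 570.7 CPM) and macrophage markers (1345 and 1493 CPM), so this match is not particular to B cells. Neutrophil markers were highest in WT 1 (605.8 CPM). The part of these cells in the levels of the receptors was not tested. None of the 9 pan-leukocyte, 6 neutrophil, 5 dendritic cell and 6 B cell markers tested was called by edgeR, at an unadjusted p under 0.05, by DESeq2 or by limma voom. Of 12 macrophage markers, 1 was called higher in AMKO, the mannose receptor Mrc1 (0.81, SE 0.18, adjusted p = 0.0211). Of the remaining lists, 2 of 9 acinar markers were called higher (Ptf1a and Bhlha15), 0 of 5 duct and 0 of 6 liver markers were called, and none of 7 T cell markers passed the filter. Over all genes tested, 5.78% were called, 2.41% as higher in AMKO.

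**Figure D4:**
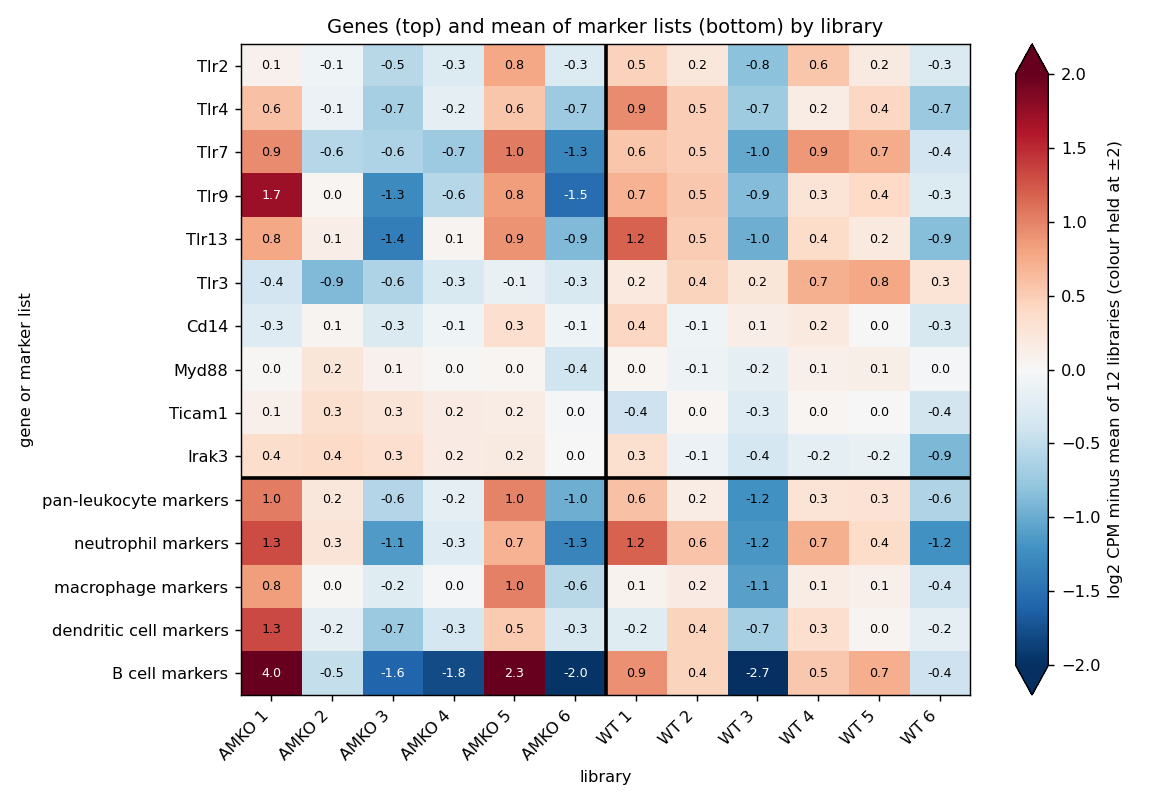
Log2 CPM of each gene minus its mean over the 12 libraries (colour and printed number, colour held at ±2), with AMKO libraries left and WT libraries right, above the same measure averaged over 5 leukocyte marker lists. Tlr2, Tlr4, Tlr7, Tlr9 and Tlr13 are below their means in AMKO 3, AMKO 6, WT 3 and WT 6, as the pan-leukocyte list is, while the Tlr3 row splits by genotype and the Myd88 row is flat apart from AMKO 6.

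By the same distance as used for Tlr3, the nearest 2 genes to Tlr13 were Clec4d (0.18) and Ccr1 (0.20), a myeloid lectin and a chemokine receptor, against a median of 0.83 over all candidates. The nearest 2 to Tlr9 were Dock2 (0.21) and Dock8 (0.24), guanine nucleotide exchange factors of haematopoietic cells, against 0.93, and those to Tlr7 were Epsti1 (0.23) and Pycard (0.25), against 0.84. Tlr4 was nearest to Ifitm1 (0.16) and Glipr2 (0.17), and Tlr2 to Npc2 and Ap1s2 (0.21 each). Myd88 was nearest to Psmb7, a proteasome subunit (0.055), and Rpl7l1 (0.069), against 0.28. Cd14 was nearest to Rnf149 (0.14) and Pgm3 (0.15), Ticam1 to Tmem9b (0.11) and Gltp (0.12), and Irak3 to Agpat9 and Klf4 (0.17 each). For the mean of the 10 profiles the 5 nearest genes were Zhx1, Prdx5, Acp2, Npc2 and Sod2, at distances of 0.12 to 0.14. Among pairs of the 10 genes, Myd88 and Ticam1 were closest (0.22) and Tlr3 and Tlr9 farthest apart (0.93), and Tlr4 and Tlr13 differed by 0.29. All these distances share the same 12 libraries and their leukocyte content.

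Levels were compared between genes per kilobase of merged exon length (GENCODE M21). Cd14 was the most abundant in both genotypes, at 58.5 ± 9.96 CPM per kilobase in AMKO and 63.4 ± 10.97 in WT, followed by Myd88 at 19.1 ± 2.59 in AMKO and 18.9 ± 1.53 in WT (SD, n = 6 each), and neither range touched that of the next gene. Below them in AMKO came Irak3 (7.27), Tlr13 (6.62), Tlr2 (5.93), Ticam1 (3.74), Tlr4 (3.15), Tlr3 (2.99), Tlr7 (1.57) and Tlr9 (1.13), as mean CPM per kilobase. In WT the order of these means was Tlr13 (7.18), Tlr2 (6.41), Tlr3 (5.53), Irak3 (5.38), Tlr4 (3.67), Ticam1 (2.997), Tlr7 (1.92) and Tlr9 (1.04). Each neighbour in these orders below Myd88 overlapped with the next in its range over 6 libraries. Tlr3 was thus the lowest of the 10 but Tlr7 and Tlr9 in AMKO, and the fifth in WT, with steps between neighbours within their spread.

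The rest of the pathway was read from lists of textbook members, chosen with earlier results of these data known. In these lists the 2 genes called were the helicases above. The other counts given per list stand beside those over all 13743 genes tested. There edgeR called 794 (5.78%) and gave 3008 an unadjusted p under 0.05, while 1234 were called by DESeq2 and 1664 by limma voom. Among the other Toll-like receptors, 4 of 6 were tested and none was called (0 at an unadjusted p under 0.05, 0 by DESeq2 and 0 by limma voom). All 4 had fitted values above 0, with a median of 0.44. Tlr1, a partner of TLR2, stood at 17.1 ± 8.42 CPM in AMKO and 12.2 ± 4.99 CPM in WT (0.49, SE 0.34, adjusted p = 0.422), and Tlr8, an endosomal receptor for RNA, at 9.52 ± 4.48 CPM in AMKO and 7.06 ± 2.22 CPM in WT (0.44, SE 0.30, adjusted p = 0.415). Without AMKO 5, 1 of the 2 libraries with the highest leukocyte marker levels, Tlr1 was at 0.29 and Tlr8 at 0.23.

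Co-receptors and chaperones gave 0 calls in 8 genes tested (1 at an unadjusted p under 0.05, 0 by DESeq2 and 1 by limma voom), with a median of -0.01. Unc93b1, which carries the nucleic acid receptors to endosomes, was at 34.3 ± 18.8 CPM in AMKO and 28.2 ± 5.55 CPM in WT (0.29, SE 0.29, adjusted p = 0.602, and 0.084 without AMKO 5), and Hsp90b1, the chaperone gp96 on which most Toll-like receptors depend, at 654 ± 50.7 CPM in AMKO and 726 ± 148 CPM in WT (-0.15, SE 0.12, adjusted p = 0.507). Endogenous ligands gave 0 calls in 10 (3, 1 and 2 by the same other counts), with a median of -0.08. Fn1, fibronectin, was at 479 ± 246 CPM in AMKO and 325 ± 186 CPM in WT (0.56, SE 0.42, adjusted p = 0.469). Saa3, an acute phase protein described as a TLR4 ligand in mice, ran from 24.8 to 954.6 CPM in AMKO and from 47.3 to 588.4 CPM in WT, so its mean carries little (-0.02, SE 0.85, adjusted p = 0.992).

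Adaptors and kinases downstream gave 0 calls in 19 genes tested (5 at an unadjusted p under 0.05, 0 by DESeq2 and 0 by limma voom), with a median of -0.05. Irak1, the kinase recruited by MYD88, was at 136 ± 13.9 CPM in AMKO and 127 ± 15.3 CPM in WT (0.10, SE 0.09, adjusted p = 0.555), and Pik3ap1, the adaptor BCAP, at 69.9 ± 17.1 CPM in AMKO and 75.7 ± 14.2 CPM in WT (-0.11, SE 0.16, adjusted p = 0.716). Other brakes gave 0 calls in 12 (2, 1 and 2 by the other counts), with a median of -0.01. Dusp1, a phosphatase that switches off p38 and JNK, came nearest to a call, with 71.8, 86.6 and 101 CPM in AMKO (lowest, median and highest) against 30.6, 53.2 and 85.6 CPM in WT. Of the WT libraries only WT 4 lay within the AMKO range, and the log2 fold change was 0.66 (SE 0.19, adjusted p = 0.0524). Dusp1 passed in 10 of 24 alternatives, among them DESeq2 (adjusted p = 0.00847), limma voom (0.0223) and the fit without WT 4 (0.0106). Tnip1, a partner of A20, did not pass (-0.11, SE 0.16, adjusted p = 0.745).

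Transcription factors gave 0 calls in 11 genes tested (3 at an unadjusted p under 0.05, 1 by DESeq2 and 2 by limma voom), with a median of 0.09. Rela, the p65 subunit of NF-kB, was at 240 ± 42.6 CPM in AMKO and 199 ± 16.5 CPM in WT (0.27, SE 0.11, adjusted p = 0.165), and Nfkb2 at 69.2 ± 10.6 CPM in AMKO and 68.6 ± 6.82 CPM in WT (0.01, SE 0.10, adjusted p = 0.962). Irf7, an interferon-inducible factor downstream of TLR7 and TLR9 and chosen after its values were seen, had 10.97, 15.5 and 42.0 CPM in AMKO against 33.6, 52.3 and 88.6 CPM in WT. AMKO 1 and AMKO 5, at 42.0 and 41.5 CPM, lay within the WT range and the other 4 AMKO libraries below it, and the fold change did not pass (-1.19, SE 0.36, adjusted p = 0.0658). It passed in 6 of 24 alternatives: DESeq2 (adjusted p = 0.0475), limma voom (0.00611), the replicate block (0.0255), the pan-leukocyte covariate (0.00173) and the fits without AMKO 1 (0.024) or AMKO 5 (0.0267).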

How the data were processed

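RNA from 12 caerulein-treated pancreas samples (6 AMKO, 6 WT) was sequenced, and the deposited table holds whole-number read counts per gene, with 10668637 to 15184371 counts per library. Reads were aligned with HISAT2 2.0.4 to mm10, per the submitters' processing notes; which tool and annotation gave the counts, and whether strand was used, is not given in the sources. From the deposited counts, edgeR 4.0.16 (R 4.3.3) was used with TMM scaling, filterByExpr and a quasi-likelihood F test of genotype, adjusted by Benjamini-Hochberg over 13743 genes and called at 0.05. SE is the size of the log2 fold change over the square root of F, and log2 CPM uses a prior count of 2.

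Alternatives were other scalings and filters, DESeq2 1.42.0, limma 3.58.1 voom with quality weights, a replicate block, each library left out, WT 1 to 3 or WT 4 to 6 alone, the 4 leukocyte-poor libraries left out and a pan-leukocyte covariate. Ratios within a library were compared by exact permutation (SciPy 1.17.1), and this and their alternatives were added after the data were seen. The edgeR step was tested on simulated counts. No library was counted as a repeat deposit, since every pair within a genotype differed beyond counting noise, with chi-square over its degrees of freedom at 9.75 to 74.2. Positions and exon lengths come from GENCODE M21 (GRCm38) and promoters from RefSeq; BLAST 2.17.0 found no copy of a member at 95% identity over 300 bases.

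The members and lists were chosen with earlier results of these data known. Genes named are all 10 members, in each pathway list the called genes (up to 4) or else the 2 most abundant tested, the 5 nearest profiles to the mean of the members and the 2 nearest to each. At this depth Tlr9, the least abundant member, has the least precise values.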

Additional observations from a re-analysis of the deposited data

Results flagged for a closer look

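Across 48 sets of 6 libraries (the named genes in each genotype), 2 held a library far from the others by Dixon's test, which chance gives in about 5% of sets. Myd88 in AMKO 6 stood at 5.22 log2 CPM (37.1 CPM), below the nearest AMKO library at 5.63, a gap of 0.661 of the whole range. AMKO 6 was among the 4 libraries with the lowest pan-leukocyte markers. Tnip1, a partner of A20, in WT 6 stood at 6.94 log2 CPM (122.6 CPM), above the nearest WT library at 6.42, a gap of 0.775 of the range.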

How the results depend on the processing

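Tlr3 was called lower in AMKO in all 24 alternative settings, with log2 fold changes of -1.01 to -0.73 and adjusted p from 8.46e-07 to 0.042. The 794 genes called became 456 with total counts only, 1259 with DESeq2, 1664 with limma voom, 167 against WT 4 to 6, 231 against WT 1 to 3, 98 without the 4 leukocyte-poor libraries, 1647 with the pan-leukocyte covariate and 411 to 1140 when 1 library was left out. Among the 10 members, 2 were called with the replicate block (Irak3, adjusted p = 0.0383) and with the covariate (Tlr7, adjusted p = 0.0305), and 1 to 2 when 1 library was left out (Irak3 without WT 1). Of the pathway genes, against 2 in the report, 1 was called with total counts only, 5 with DESeq2, 9 with limma voom, 9 with the block, 0 against WT 4 to 6, 1 against WT 1 to 3, 0 without the 4 leukocyte-poor libraries, 11 with the covariate and 1 to 7 when 1 library was left out. Values that changed sign, none of them called, were Myd88 -0.014, Saa3 0.024 and Nfkb2 -0.028 with total counts only; Tlr9 -0.50 and Unc93b1 -0.043 with limma voom; Tlr9 -0.18 with the replicate block; Tlr4 0.011, Cd14 0.00027, Tlr13 0.17, Myd88 -0.041, Pik3ap1 0.061 and Nfkb2 -0.0044 against WT 4 to 6; Saa3 0.068 against WT 1 to 3; Tnip1 0.050 without the 4 leukocyte-poor libraries; and Tlr9 -0.39 and Myd88 -0.0033 with the covariate. With 1 library left out, the ranges that crossed 0 were -0.44 to 0.35 for Tlr9, -0.030 to 0.093 for Myd88, -0.75 to 0.25 for Saa3, -0.30 to 0.19 for Tlr13, -0.041 to 0.068 for Nfkb2, -0.36 to 0.0082 for Tlr4 and -0.24 to 0.0091 for Tnip1; the cause was not tested. The labels do not say whether same-numbered AMKO and WT libraries belong together. Their deviations correlated at -0.16 to 0.346, and only replicate 3 matched its own number best. The correlations were highest for replicates 3 and 6 (0.346 and 0.316), which are the leukocyte-poor libraries of both genotypes. Whether a shared batch lies behind this was not tested. The block gave 910 calls.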
